A study of Mus musculus with 12 samples.

Results

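The glutathione, thioredoxin and antioxidant genes are a set of 44 genes that keep the inside of a cell chemically reduced, taken from a list of names. Of these, 43 had a row in the deposited table of 11834 genes and were examined, and Gpx7 was not analysed here. They were measured in the lactating mammary gland of C57BL/6 mice, in 7 animals lacking Btn1a1 (Btn1a1-/-, KO) and 5 wild-type animals (WT), by sequencing of polyA RNA with 1 library for each animal. Btn1a1 encodes butyrophilin 1a1, a protein of the milk fat globule membrane. All glands came from lactation 1. Day 10 was the day for WT replicates 1, 4 and 5 and KO replicates 1, 2, 5, 6 and 7. Of the remaining animals, WT replicate 2 was at day 9, WT replicate 3 at day 11, KO replicate 3 at day 8 and KO replicate 4 at day 11. Per the labels, the mutant line was kept as heterozygous pairs apart from the wild-type breeding cages, 2 diets are named without a diet for each mouse, and the age of the animals is not given. Genotype, breeding line and diet therefore cannot be told apart.

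Cells hold peroxides in check through a pair of thiol systems. Glutathione is built from cysteine, glutamate and glycine, is oxidised by peroxidases and is returned to its reduced form by glutathione reductase. Thioredoxin does the same for peroxiredoxins and is recharged by thioredoxin reductase, and both reductases draw on NADPH. Many of these genes respond to the transcription factor Nrf2 (Nfe2l2), which its sensor Keap1 marks for destruction until oxidants or electrophiles release it. Ferritin stores iron that would otherwise feed radical chemistry. A lactating gland burns much fuel and makes lipid and secreted protein at a high rate, so it depends on these systems.

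Values are log2 CPM, read levels on a log scale after each library was brought to a common total. The authors had made the libraries share 1 distribution of values, so no read total remains in the table and no counting interval can be given. A gene was called when its adjusted p in limma, with Benjamini-Hochberg correction across the whole table, was under 0.05. This rule called 9.36% of all genes, of which those higher in KO made up 4.84% of the table and those lower 4.52%. Btn1a1 itself was at 11.03 to 11.23 log2 CPM in WT and at 5.10 to 6.02 in KO, a log2 change of -5.43. All 8 luminal secretory markers had a row, and the epithelial keratin Krt8 was at 5.43 to 5.82 log2 CPM in WT and 5.62 to 6.43 in KO. Krt8 and Epcam were called higher in KO, with log2 changes of 0.42 and 0.30. Without a call, Lalba (0.19) and Krt18 (0.12) stood higher and Elf5 (-0.25) and Cd24a (-0.20) lower. The milk protein genes Csn2 and Wap carry 1 value each throughout, set by the normalization, so they mark the tissue but compare no glands. None of the 9 neutrophil or 8 T and B cell markers listed had a row. Fewer cells of a type and less RNA per cell cannot be told apart in such bulk libraries.

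Of the 43 genes, 8 were called (18.6%, against 9.36% of all genes). The set was chosen with earlier results of these data known and is not matched for level, so this share is no test of it. Gstp1, Nqo1, Prdx1 and Fth1 rose in KO, and Gsto1, Gstm1, Prdx4 and Slc7a11 fell. The other 35 did not pass, and 6 of them had an adjusted p between 0.05 and 0.1. At an unadjusted p under 0.05 there were 8 genes higher and 10 lower. The median log2 change over the 43 genes was -0.06, beside -0.03 over all genes, and the median size of a change without its sign was 0.20, beside 0.16. Changes were small for many of them, with 22 of 43 under 0.2 in size. The libraries of the groups stood fully apart for Nqo1 and Gsto1, 4.65% of the 43 genes, against 5.43% of all genes. The authors' deposited table calls the same 8 genes, with the same signs.

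**Figure D1:**
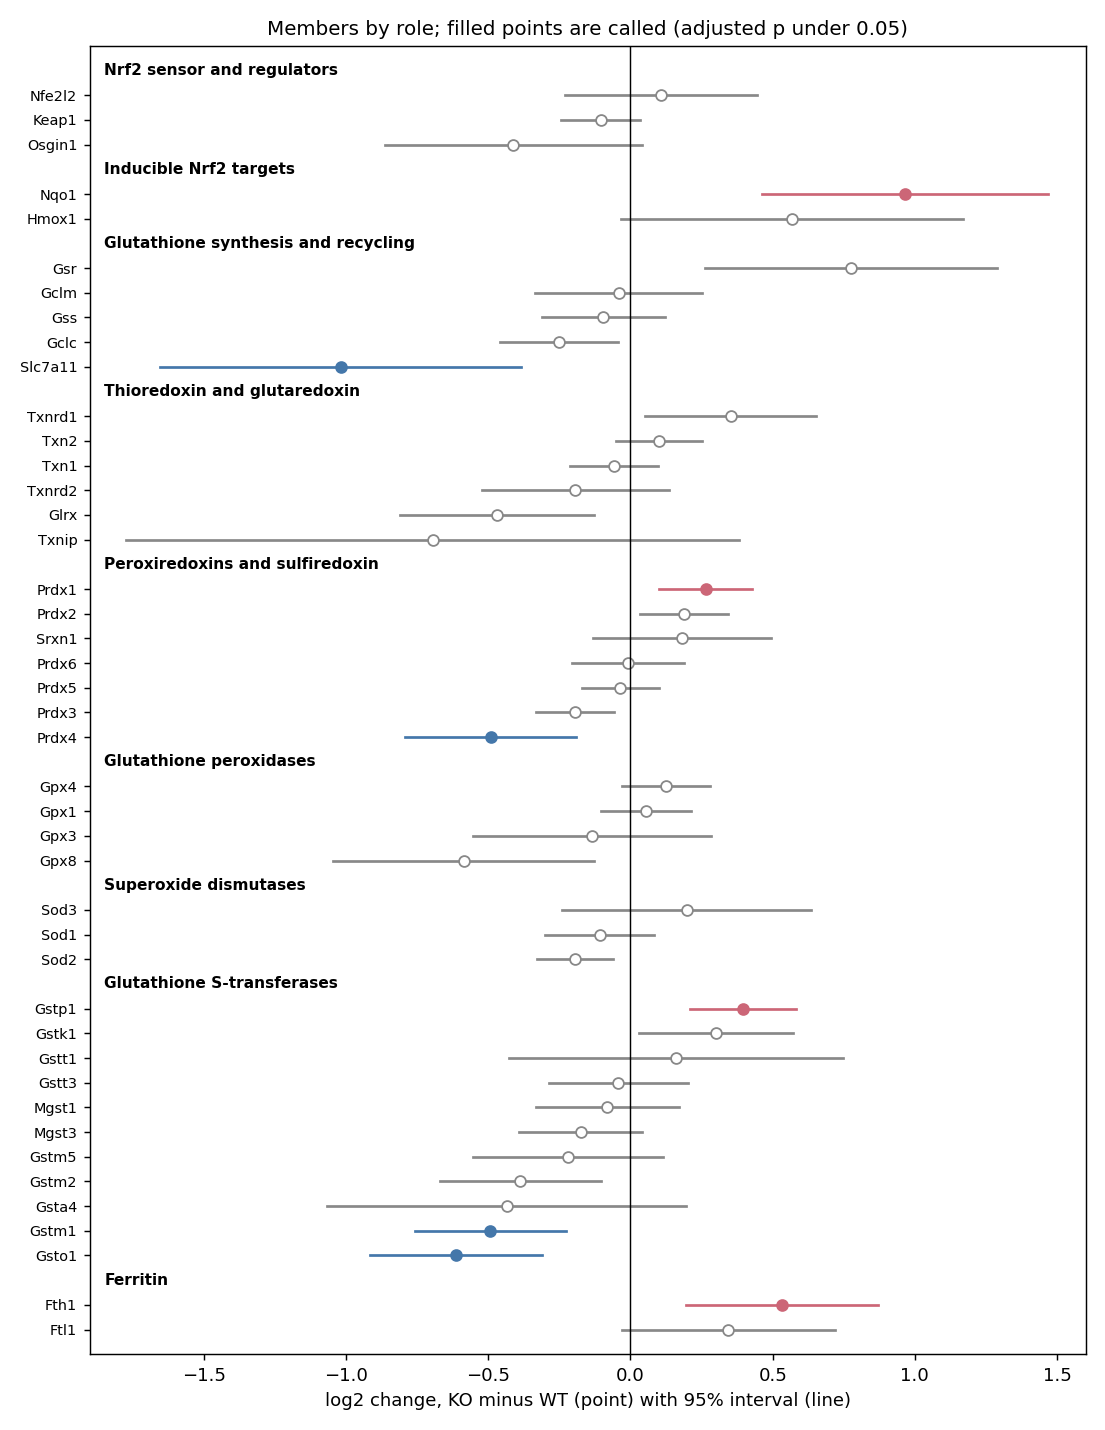
Log2 change of KO against WT (horizontal axis) for each of the 43 genes, grouped by role, with the 95% interval as a line. Filled points are the 8 called genes, red for higher and blue for lower in KO, and every group with 4 or more genes has points on both sides of 0.

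The promoters of 3 called genes are shown first because they hold short motifs of regulators named for these pathways. Each window runs from 250 bases before to 50 after the RefSeq start on build GRCm38.p6. A RefSeq promoter was found for 37 of the 43 genes, including all 8 called ones. The 3 motifs below were searched on both strands: the core of the antioxidant response element, TGACNNNGC, to which Nrf2 binds with a small Maf protein, the core of the amino acid response element, TGATGCAA, known from Atf4 targets, and the AP-1 site, TGANTCA. Capitals mark the matches. Slc7a11 lies at chr3:50443564-50443863 on the minus strand, Prdx1 at chr4:116685349-116685648 on the plus strand and Gstp1 at chr19:4037863-4038162 on the minus strand.
Slc7a11: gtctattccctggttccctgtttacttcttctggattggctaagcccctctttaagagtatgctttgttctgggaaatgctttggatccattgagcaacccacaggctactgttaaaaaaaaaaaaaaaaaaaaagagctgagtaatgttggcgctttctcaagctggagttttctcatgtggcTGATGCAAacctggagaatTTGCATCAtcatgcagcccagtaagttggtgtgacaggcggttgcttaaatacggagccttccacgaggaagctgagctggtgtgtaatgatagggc
Prdx1: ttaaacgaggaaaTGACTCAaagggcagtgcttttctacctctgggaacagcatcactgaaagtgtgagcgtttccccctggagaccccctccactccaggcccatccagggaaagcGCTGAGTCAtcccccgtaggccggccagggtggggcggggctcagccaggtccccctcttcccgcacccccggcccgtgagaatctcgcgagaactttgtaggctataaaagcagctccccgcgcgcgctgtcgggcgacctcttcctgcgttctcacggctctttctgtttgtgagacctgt
Gstp1: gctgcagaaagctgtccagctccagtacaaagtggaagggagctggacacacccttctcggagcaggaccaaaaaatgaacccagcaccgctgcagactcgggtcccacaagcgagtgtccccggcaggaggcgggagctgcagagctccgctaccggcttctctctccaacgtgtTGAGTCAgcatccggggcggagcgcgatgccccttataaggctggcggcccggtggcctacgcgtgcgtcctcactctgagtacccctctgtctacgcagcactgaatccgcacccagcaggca
In Slc7a11 the amino acid response element core is present in 2 copies, from base -66 to -59 and, on the reverse strand, from -47 to -40 relative to the start. Among the 37 genes with a promoter Slc7a11 was the 1 with this motif (2.7%), against 1.03% of all 27025 genes with a promoter and 0.766% of the 8874 of these in the table. A gene was counted when any of its promoters held the motif. In Prdx1 an antioxidant response element core on the reverse strand, from -133 to -125, overlaps an AP-1 match from -131 to -125, and a further AP-1 match lies from -237 to -231. Gstp1 holds an AP-1 match from -74 to -68. The antioxidant response element core was found for 8 of the 37 genes (21.6%), against 14.0% of all and 17.3% of genes in the table, and Prdx1 was the 1 called gene among them. The AP-1 site was found for 6 (16.2%), against 8.97% of all and 6.25% of genes in the table. Besides the called Prdx1 and Gstp1 these were Srxn1, Gstm5, Osgin1 and Glrx, which were not called. Nqo1, a textbook Nrf2 target, has no match to any of the 3 in this window, and nor do the called genes Gsto1, Gstm1, Prdx4 and Fth1. A match is a string of letters and not a bound site.

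The sensor and regulators of the pathway came first in the comparison. None of the 3 was called, none had an unadjusted p under 0.05 in limma, and the authors' deposited table calls none. Nfe2l2 was at 5.11 ± 0.38 log2 CPM in WT (SD, n = 5) and 5.22 ± 0.24 in KO (SD, n = 7), a log2 change of 0.11 with a 95% interval from -0.23 to 0.45. Keap1 changed by -0.10, with an interval from -0.24 to 0.03. Both intervals hold 0. Osgin1, an oxidative stress-induced growth inhibitor, stood at -0.41 (interval -0.86 to 0.04).

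Nqo1, the quinone reductase that serves as a standard readout of Nrf2, rose. WT replicates 1 to 5 held 0.06, -0.06, 0.06, -0.64 and 0.18 log2 CPM, and the 7 KO libraries ran from 0.27 to 1.51 with a median of 0.72. Every KO library lay above every WT library, with WT replicate 4 the lowest of all. The log2 change was 0.96 (SE 0.24, adjusted p = 0.0215), or 1.95-fold, and the call ended without WT replicate 4 (adjusted p = 0.0511). Nqo1 (chr8:107388225-107403206, minus strand, mm10) is a weakly expressed gene here, with 0.620 CPM per kb of exon in WT, next to last among the 43 genes by that measure. Hmox1, the haem-degrading oxygenase and another inducible target, stood at 0.57 on the same scale (SE 0.28, adjusted p = 0.215), and 2 of its 7 KO libraries lay above all WT libraries.

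Slc7a11 encodes the transport subunit of the cystine-glutamate exchanger, which brings in the cysteine from which glutathione is made. It fell in KO. Its WT libraries held 3.66, 2.67, 2.87, 3.19 and 2.19 log2 CPM, and the KO libraries ran from 0.87 to 2.43 with a median of 2.22. The groups overlapped, since WT replicate 5 lay below 4 KO libraries, and 3 KO libraries lay below all of WT. The log2 change was -1.02 (SE 0.29, adjusted p = 0.0464), or 2.03-fold lower, the largest in size among the 43 genes. Its WT level was 8.00 CPM, spread over 13.9 kb of joined exon. That made 0.574 CPM per kb, the lowest of the 43 genes by that measure. The call was kept in 4 of the 12 fits that left out 1 library and ended when WT replicate 1, 2, 3 or 4 or KO replicate 1, 2, 4 or 7 was dropped, at an adjusted p between 0.0512 and 0.112.

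The enzymes that build and recycle glutathione gave no call. Gsr, glutathione reductase, was the uncalled gene with the largest change. WT libraries held 2.59, 2.66, 2.93, 2.98 and 1.90 log2 CPM and KO libraries 2.68 to 4.18 with a median of 3.37, so that 6 of 7 KO libraries lay above all of WT. The log2 change of 0.78 (SE 0.24) had an adjusted p of 0.0583, and Gsr passed without KO replicate 5 (adjusted p = 0.0219) or, just under the threshold, without KO replicate 6. Gclc, the catalytic subunit of the ligase that starts glutathione synthesis, stood at -0.25 (adjusted p = 0.116), its modifier subunit Gclm at -0.04 and glutathione synthetase Gss at -0.09. Gss shares exon sequence with its neighbour Acss2, so reads there may count for either.

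Among 6 thioredoxin and glutaredoxin genes none was called, 2 had an unadjusted p under 0.05 in limma, and the authors' deposited table calls none. Txnrd1, the cytosolic thioredoxin reductase, was at 5.90 ± 0.26 log2 CPM in WT (SD, n = 5) and 6.25 ± 0.28 in KO (SD, n = 7; log2 change 0.35, adjusted p = 0.126). Glrx, a glutaredoxin that frees proteins from bound glutathione, stood at -0.47 (SE 0.16, adjusted p = 0.0791). The thioredoxins themselves moved little, Txn1 by -0.06 and the mitochondrial Txn2 by 0.10, and the mitochondrial reductase Txnrd2 had -0.19. Txnip, an inhibitor of thioredoxin that responds to glucose, had the widest spread of the 43 genes. Its WT libraries held 8.40, 9.42, 8.82, 7.14 and 7.08 log2 CPM and its KO libraries 6.49 to 8.70 with a median of 7.30. WT alone had an SD of 1.04, the log2 change of -0.70 had an SE of 0.49, and the adjusted p was 0.398.

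Peroxiredoxins reduce peroxides with thioredoxin, and 2 of them moved in opposite directions. Prdx4, the peroxiredoxin of the endoplasmic reticulum, fell. WT libraries held 7.53, 7.41, 7.52, 7.68 and 7.59 log2 CPM and KO libraries 6.67 to 7.48 with a median of 7.19. All but KO replicate 7 lay below all of WT, and KO replicates 1, 2 and 4 were lowest. The log2 change was -0.49 (SE 0.14, adjusted p = 0.0425), or 1.40-fold lower. Prdx4 (chrX:155323918-155340754, minus strand, mm10) is abundant, with 88.8 CPM per kb of exon in WT, the fourth highest of the 43 genes. The call ended when any WT library, or KO replicate 1, 2 or 4, was dropped, at an adjusted p between 0.0651 and 0.0877, and with library weights (adjusted p = 0.0525).

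Prdx1, the main cytosolic peroxiredoxin, rose slightly. Its WT libraries held 6.90, 6.91, 7.14, 7.08 and 6.83 log2 CPM and its KO libraries 7.12 to 7.42 with a median of 7.21. In 5 of 7 KO libraries the value was above all of WT, and KO replicates 1 and 6 lay below WT replicate 3. The log2 change was 0.26 (SE 0.08, adjusted p = 0.0449), or 1.20-fold. This call was kept in 2 of 12 fits, those without WT replicate 3 or KO replicate 6, and ended in the other 10 at an adjusted p between 0.0504 and 0.109. Of the rest of the family, the mitochondrial Prdx3 stood at -0.20 (adjusted p = 0.0688, or 0.0461 without WT replicate 1) and Prdx2 at 0.19 (adjusted p = 0.113), while Prdx5 (-0.04) and Prdx6 (-0.01) were near 0. Sulfiredoxin Srxn1, which repairs over-oxidised peroxiredoxins and is a further Nrf2 target, had 0.18 (interval -0.13 to 0.49). Prdx2 overlaps exons of Rnaseh2a and Junb, and Prdx5 those of Trmt112, and without strand information such reads cannot be assigned.

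**Figure D2:**
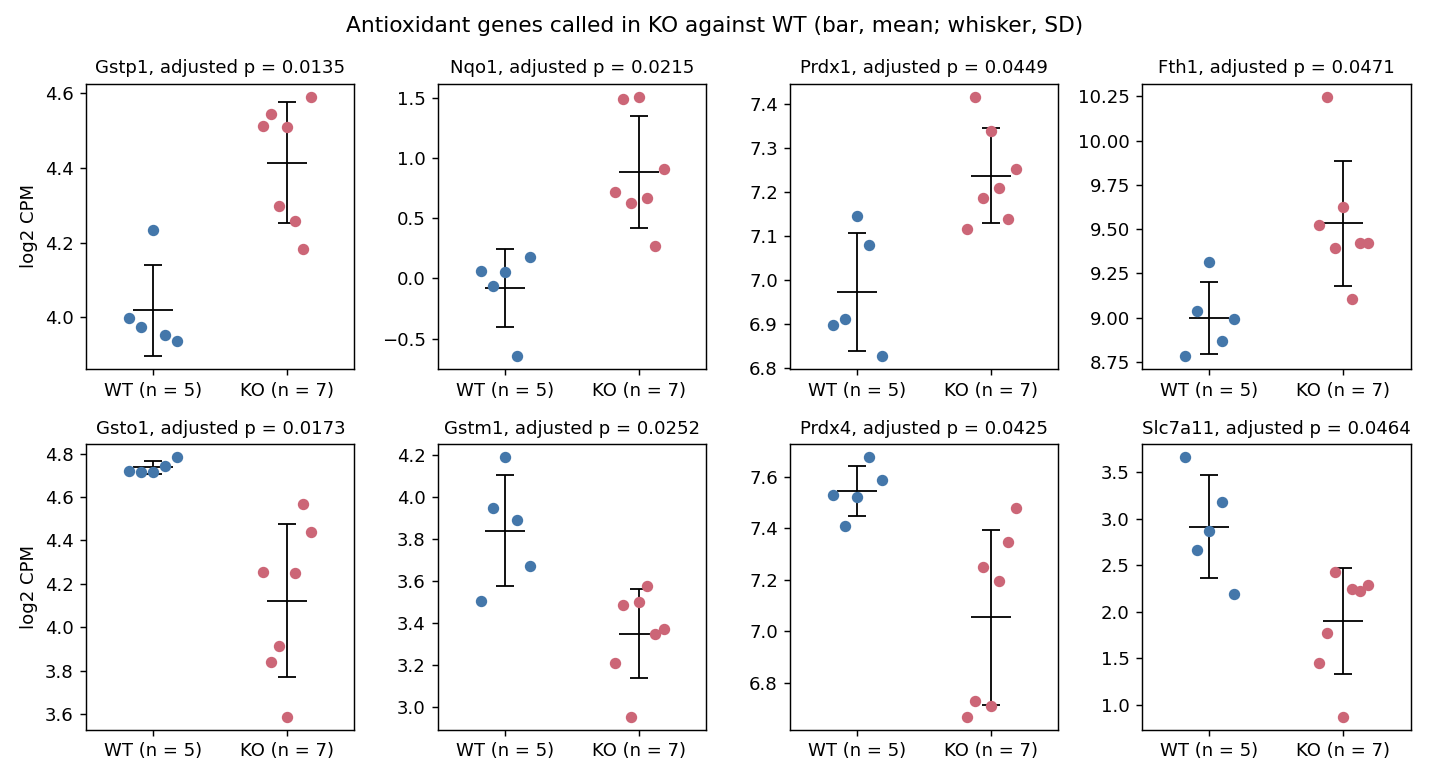
Log2 CPM of the 8 called genes in each library, with a bar at the group mean and whiskers of 1 SD (5 WT and 7 KO libraries). The upper panels are the 4 genes higher in KO and the lower panels the 4 genes lower in KO, and the groups stand clear of each other for Nqo1 and Gsto1 only.

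No glutathione peroxidase of the 4 measured was called, 1 had an unadjusted p under 0.05 in limma, and the authors' deposited table calls none. Gpx1 and Gpx4, the cytosolic enzyme and the one that reduces lipid peroxides in membranes, had log2 changes of 0.05 and 0.12, and the secreted Gpx3 had -0.13. Gpx8, a peroxidase of the endoplasmic reticulum, stood apart from them. It was at 1.14, 1.56, 1.55, 1.55 and 1.02 log2 CPM in WT and ran from 0.22 to 1.69 in KO with a median of 0.66. KO replicate 4 lay above all of WT and the other 6 KO libraries below all of WT. The log2 change of -0.59 (SE 0.22) had an adjusted p of 0.0996, and Gpx8 passed without KO replicate 4 (adjusted p = 0.0183).

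None of the 3 superoxide dismutases was called, with 1 at an unadjusted p under 0.05 in limma and none in the authors' deposited table. Mitochondrial Sod2 was at 5.46 ± 0.11 log2 CPM in WT (SD, n = 5) and 5.26 ± 0.06 in KO (SD, n = 7), a log2 change of -0.19 (adjusted p = 0.0644, or 0.0415 without WT replicate 1), with 5 KO libraries below all of WT. Cytosolic Sod1 changed by -0.11 and extracellular Sod3 by 0.20.

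Glutathione S-transferases attach glutathione to electrophiles, and 3 of 11 were called. Gstp1, of the pi class, rose. WT libraries held 4.00, 3.97, 4.23, 3.95 and 3.94 log2 CPM and KO libraries 4.18 to 4.59 with a median of 4.51. All KO libraries but replicate 6 lay above all of WT, and KO replicate 6 lay between WT replicate 3 and the other WT libraries. This was a log2 change of 0.40 (SE 0.09, adjusted p = 0.0135), or 1.32-fold, and the call was kept in all 12 fits without 1 library (adjusted p up to 0.0367). Gstp1 (chr19:4035407-4037985, minus strand, mm10) has near-identical neighbours in the mouse genome, so how reads were split among the copies is uncertain.

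Gsto1, of the omega class, which reduces dehydroascorbate and frees proteins from bound glutathione, fell in every KO library. The 5 WT libraries were close together at 4.72, 4.71, 4.72, 4.74 and 4.78 log2 CPM, and the KO libraries ran from 3.59 to 4.57 with a median of 4.25. WT had the smallest SD of the 43 genes, 0.03, against 0.35 in KO. KO minus WT came to -0.61 on the log2 scale (SE 0.14, adjusted p = 0.0173), or 1.53-fold lower, and the call was kept in all 12 fits without 1 library (adjusted p up to 0.0438). Gsto1 lies at chr19:47854970-47864790 on the plus strand (mm10).

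Gstm1, the main mu-class transferase in many tissues, fell. It was at 3.50, 3.94, 4.19, 3.89 and 3.67 log2 CPM in WT and between 2.95 and 3.58 in KO with a median of 3.37, and 6 of 7 KO libraries lay below all of WT. The log2 change was -0.49 (SE 0.13, adjusted p = 0.0252), or 1.41-fold lower. The call ended without WT replicate 2, 3 or 4 or KO replicate 1, at an adjusted p between 0.0508 and 0.0649. In day 10 libraries alone the change was -0.29 (adjusted p = 0.181). The other mu-class genes of the set had log2 changes below 0 without a call, Gstm2 with -0.39 (adjusted p = 0.0791, or 0.0319 without KO replicate 4) and Gstm5 with -0.22 (adjusted p = 0.396). These genes lie in 1 cluster on chromosome 3 and resemble each other, so the split of reads among them is uncertain. Outside that class, the peroxisomal and mitochondrial Gstk1 had 0.30 (adjusted p = 0.145), Gstt1 0.16, Gstt3 -0.04, Gsta4 -0.43 (adjusted p = 0.371), Mgst3 -0.17 and Mgst1 -0.08. Mgst1, a membrane-bound transferase, was the third highest uncalled gene by level per length, with 70.8 CPM per kb of exon in WT.

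Ferritin is built from a heavy chain, Fth1, which oxidises iron for storage, and a light chain, Ftl1. They were the 2 most abundant genes of the set per length, Ftl1 with 199 and Fth1 with 149 CPM per kb of exon in WT, ahead of Txnip with 112. Fth1 (chr19:9980598-9985098, plus strand, mm10) rose, from 8.78, 9.04, 9.32, 8.87 and 8.99 log2 CPM in WT to between 9.10 and 10.25 in KO with a median of 9.42. KO replicate 5 lay among the WT values and the other 6 above all of them, with KO replicate 2 highest. On the log2 scale this was a change of 0.53 (SE 0.16, adjusted p = 0.0471), or 1.45-fold. That call was kept in 4 of 12 fits and ended when WT replicate 1, 2, 4 or 5 or KO replicate 1, 3, 4 or 7 was dropped (adjusted p between 0.0523 and 0.120), and it also ended after cyclic loess normalization. Ftl1 stood 0.34 higher on the log2 scale (SE 0.17, adjusted p = 0.226), with 2 KO libraries above all of WT. Ferritin chains have many processed copies in the genome, which can take or lend reads.

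**Figure D3:**
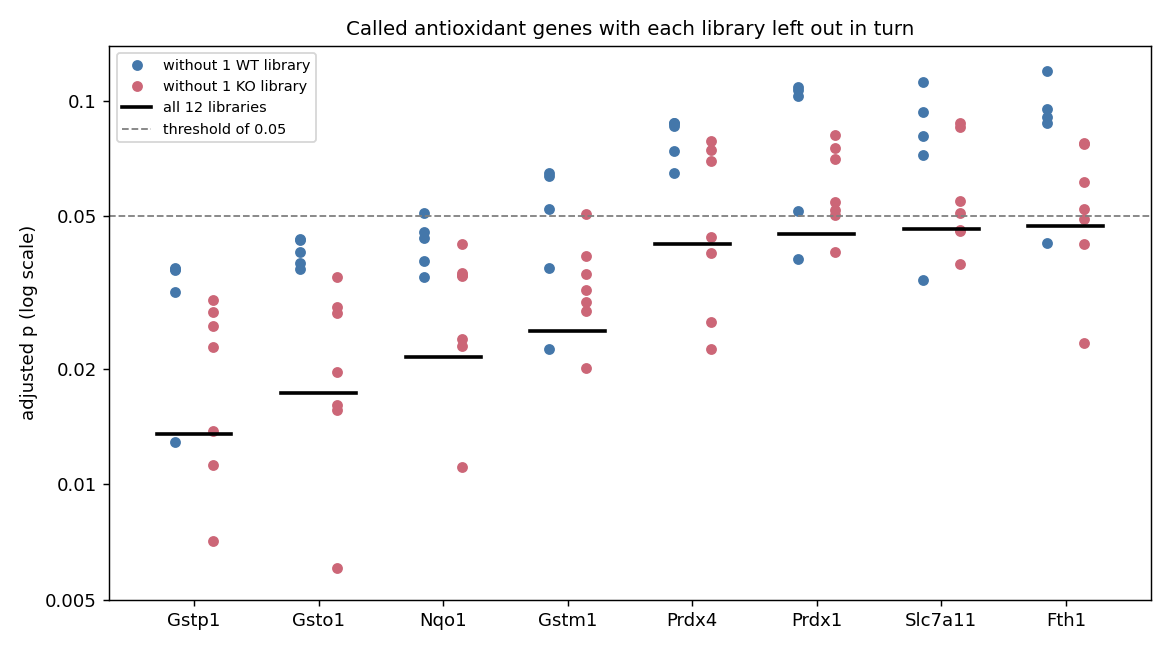
Adjusted p (limma, log scale) of each called gene with all 12 libraries (black bar) and with each library left out in turn (points, blue for a WT and red for a KO library left out). Gstp1 and Gsto1 stay under the dashed line at 0.05 in all 12 fits, Nqo1 in 11, Gstm1 in 8, Prdx4, Slc7a11 and Fth1 in 4 and Prdx1 in 2. The number of genes called in the whole table also varied among these fits, from 559 to 1327, against 1108 with all 12 libraries.

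The libraries differed among themselves in which genes stood high. KO replicate 2 was the highest KO library for 12 of the 43 genes, among them Fth1, Ftl1, Gsr, Txnrd1, Srxn1, Prdx1 and Nfe2l2. KO replicate 4 was highest for 11, among them Nqo1, Gpx8 and Gpx3, and KO replicate 3 was lowest for 12. In WT, replicate 3 was highest for 15 and replicate 2 for 14, and replicates 1 and 5 were each lowest for 14. The median SD over the 43 genes was 0.204 in WT and 0.227 in KO, beside 0.189 and 0.223 over all genes. These medians are not matched for level. A mean of at least 3 log2 CPM was reached by 32 of the 43 genes, against 5594 of 11834 in the table.

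**Figure D4:**
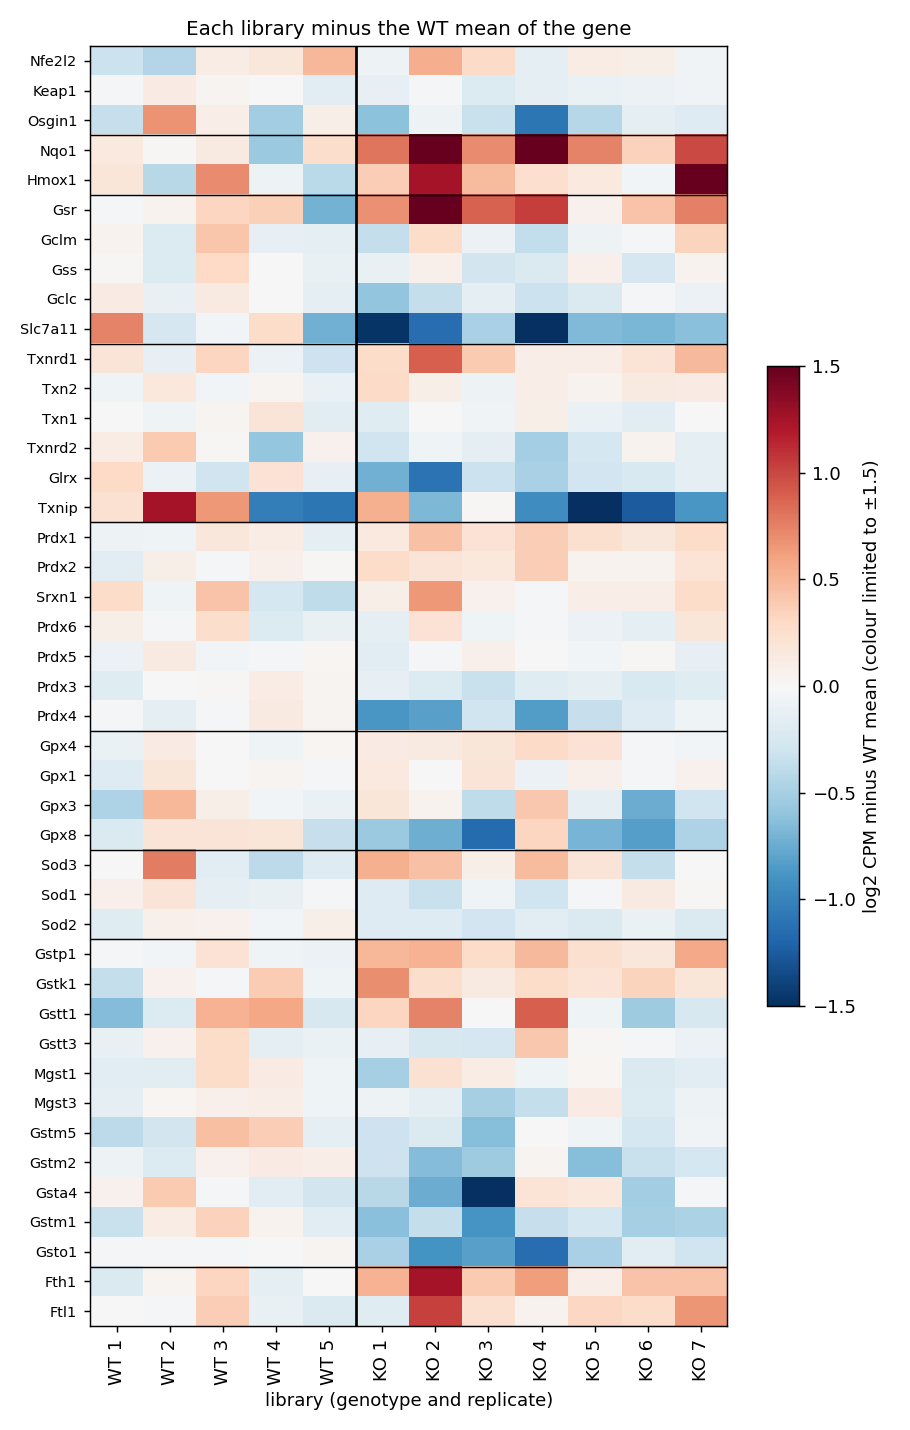
Log2 CPM of each of the 43 genes (rows, by role) in each library (columns) minus the WT mean of that gene, with the colour scale limited to 1.5 in each direction. Nqo1 is red and Gsto1 is blue across the 7 KO columns, while Txnip varies as much among the WT columns as among the KO columns.

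Some markers of other cell types were called beside these genes. Of 13 macrophage markers 4 were called higher and none lower, and their summed level was 79.6 to 114 CPM in WT and 94.5 to 168 in KO. By sign alone 11 stood above 0 and 2 below, Mertk (-0.62, adjusted p = 0.0894 in limma) and Fcgr1 (-0.01). Among basal and myoepithelial markers 5 of 9 were called higher and none lower, with sums of 451 to 591 CPM in WT and 489 to 748 in KO. Here 7 stood above 0 and 2 below, Myh11 (-0.18) and Trp63 (-0.06), both uncalled. None of 12 skeletal muscle markers was called (1 at an unadjusted p under 0.05 in limma, none in the authors' deposited table), but their sum ran from 75 to 511 CPM in WT and from 110 to 1800 in KO. Of the other lists, luminal secretory markers gave 2 of 8 higher and fibroblast markers 1 of 8 higher. Adipocyte markers gave 1 of 9 higher and endothelial markers 1 of 8 lower. The shares in the fibroblast, adipocyte and endothelial lists were 12.5%, 11.1% and 12.5%, beside 9.36% of all genes. The fibroblast call was Dpt (adjusted p = 0.0499 in limma), which the authors' deposited table does not call (adjusted p = 0.0511). Erythroid markers gave none of 5, also with none at an unadjusted p under 0.05 in limma or in the authors' deposited table. Macrophage scores, the mean log2 CPM of the markers relative to WT, were lowest among KO libraries in KO replicate 6 (-0.01) and highest in KO replicate 4 (0.49). These 2 libraries, picked after their values were seen, also held the extremes of Nqo1 (0.27 and 1.51) and Gsto1 (4.57 and 3.59) among KO libraries. They were the KO extremes of the skeletal muscle (-1.09 and 2.86), fibroblast (-0.08 and 1.07) and endothelial (-0.58 and 0.12) scores as well, but not of the remaining scores. The basal and adipocyte scores were lowest in KO replicate 3 (-0.05 and -0.17) and highest in KO replicate 1 (0.58 and 0.43). The luminal score was lowest in KO replicate 4 (-0.01) and highest in KO replicate 2 (0.18). The erythroid score was lowest in KO replicate 2 (-0.85) and highest in KO replicate 4 (0.90). With the macrophage score as a covariate none of the 43 genes was called, 7 genes higher and 4 lower had an unadjusted p under 0.05, and only 7 genes of the whole table were called. In that fit the log2 changes of Prdx1 (0.26), Gstp1 (0.37) and Fth1 (0.52) were close to those without the covariate, Nqo1 (0.75) and Gstm1 (-0.40) were somewhat smaller, and Prdx4 (-0.22), Gsto1 (-0.29) and Slc7a11 (-0.49) were smaller by over 1.5 times. With the muscle score Gstm1 alone was called, in a fit that called 276 genes of the whole table. With the basal and myoepithelial score, a covariate added after seeing the data, none was called, and only 20 genes of the whole table were. Fth1 (0.25), Gstp1 (0.23) and Slc7a11 (-0.61) were smaller by over 1.5 times, and Prdx4 (-0.33), Prdx1 (0.20) and Nqo1 (0.80) were smaller by less. Gstm1 (-0.70) and Gsto1 (-0.70) were larger in size than without that covariate. Because 5 of 7 KO libraries had a macrophage score above all of WT, and 6 of 7 a basal score, these covariates overlap with genotype, and the part of cell makeup in the changes was not tested.

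Beyond the set, 106 of 124 further genes of the same pathways, listed by role, were measured. Of these 8 rose and 13 fell (19.8% called, against 9.36% of all genes), with a median log2 change of -0.05, beside -0.03 over all genes. The lists were chosen with earlier results of these data known, so the shares called in them are no test of the pathways. Leaving out 1 library in turn kept the call of 12 of the 21 in every fit. With the macrophage covariate, where 7 genes of the whole table were called, only Ero1lb and Ltf kept theirs. Only Ero1lb, Ltf and Lcn2 did so with the basal covariate (20 genes of the table called). With the muscle covariate (276 called) Hagh, Gstm6 and Cyba did so as well. In day 10 libraries alone, with 268 genes of the table called, only Gstm6, Msrb3, Nnt, Cyba, Ero1lb, Ltf and Lcn2 stayed called. The part of cell makeup in these calls was not tested.

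Genes that feed cysteine and glutathione were lower where they were called. In the list of other glutathione cycle genes, 4 of 15 fell and none rose. Cth and Cbs, which make cysteine from homocysteine by transsulfuration, fell by 0.91 and 2.09 on the log2 scale (adjusted p = 0.0135 and 0.0173). Oplah, which returns 5-oxoproline to glutamate, fell by 0.52 (adjusted p = 0.0171), and Hagh, a glyoxalase that releases glutathione, fell by 0.30 (adjusted p = 0.00987). The 4 calls were kept in all 12 fits without 1 library. All 4 ended in day 10 libraries alone and with the macrophage or the basal covariate. Those of Oplah, Cth and Cbs also ended with the muscle covariate. In the list of other glutathione transferases and peroxidases, 1 of 7 was called. This was Gstm6, of the mu class and the same gene cluster as Gstm1, which fell by 2.11 (adjusted p = 0.00329) and lay lower in all 7 KO libraries than in any WT library. Gstm4 and Gstm7, also mu-class genes, had -0.50 (adjusted p = 0.0842) and -0.64 (adjusted p = 0.109).

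NADPH, which recharges both thiol systems, comes from a further list of 12 genes, of which 3 fell and 1 rose. G6pdx, the entry enzyme of the pentose phosphate pathway, fell by 0.53 (adjusted p = 0.00903) in all 7 KO libraries relative to all of WT, and Tkt, a transketolase of the same pathway, fell by 0.37 (adjusted p = 0.0256, or up to 0.0682 without WT replicate 1, 2 or 3). Nnt, the mitochondrial transhydrogenase, fell by 0.61 (adjusted p = 0.0171). A deletion in Nnt is known from the C57BL/6J substrain, the labels give no substrain, and whether it plays a part was not tested. Idh2, the mitochondrial NADP-dependent isocitrate dehydrogenase, rose by 0.34 (adjusted p = 0.0453), a call kept in 3 of 12 fits, those that dropped KO replicate 3, 5 or 6 (adjusted p up to 0.115 in the others).

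Among other thioredoxin-family and methionine repair genes, 2 of 18 rose and 2 fell. Msrb3, a methionine sulfoxide reductase, rose by 0.54 (adjusted p = 0.0130) in all 7 KO libraries relative to WT. Sepw1, selenoprotein W, rose by 0.78 (adjusted p = 0.0280, or up to 0.0745 without WT replicate 1 or 5 or KO replicate 1 or 2). Sepp1, the selenium carrier selenoprotein P, fell by 0.46 (adjusted p = 0.0455), a call kept in 4 of 12 fits, those that dropped WT replicate 3 or KO replicate 5, 6 or 7 (up to 0.106 in the others). Txnrd3, a thioredoxin reductase best known from testis, fell by 0.52 (adjusted p = 0.0312, or up to 0.0861 without WT replicate 1, 2, 3 or 5 or KO replicate 2). Of 11 other antioxidant proteins, Cat, the catalase of peroxisomes, fell by 0.29 (adjusted p = 0.0359) and Pon2, a paraoxonase, rose by 0.84 (adjusted p = 0.0320). The Cat call ended without WT replicate 1, 2 or 3 or KO replicate 1, 3 or 4 (up to 0.0975), and the Pon2 call without WT replicate 2, 3, 4 or 5 or KO replicate 1, 2 or 4 (up to 0.0746).

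None of 18 Nrf2 partners, repressors and further targets was called. In limma 2 of them had an unadjusted p under 0.05, and the authors' deposited table calls 1, Cbr1. Cbr1, a carbonyl reductase, had a log2 change of -0.31 here (adjusted p = 0.0543), Mafg, a small Maf partner of Nrf2, 0.25 (adjusted p = 0.172), Trim16 0.41 (adjusted p = 0.192) and Akr1b8, an aldo-keto reductase, 0.79 (adjusted p = 0.239).

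On the side of oxidant sources, 2 of 12 genes rose and 1 fell. Cyba, the membrane subunit that NADPH oxidases share, rose 2.82-fold (adjusted p = 0.00329) with all 7 KO libraries above WT. Its partner in phagocytes, Cybb, rose by 0.47 (adjusted p = 0.0477), but the call was kept in 2 of 12 fits, those without KO replicate 2 or 6 (up to 0.119 in the others), and the authors' deposited table does not call it. Macrophage markers summed higher in KO, as given above, and their part in these rises was not tested. Ero1lb, an oxidase of disulfide formation in the endoplasmic reticulum, where Prdx4 also works, fell by 1.18 (adjusted p = 0.000440). It lies 10.9 Mb from Btn1a1 on chromosome 13, and whether linked strain sequence plays a part was not tested, while none of the 8 called genes of the set lies on that chromosome. Of 13 genes of iron and haem handling, Ltf and Lcn2, secreted proteins that bind iron or its carriers, rose by 1.51 and 2.13 (adjusted p = 0.000383 and 0.000841). Aco1, which as an iron regulatory protein controls ferritin translation, fell by 0.29 (adjusted p = 0.0184, or 0.0530 without WT replicate 2).

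**Figure D5:**
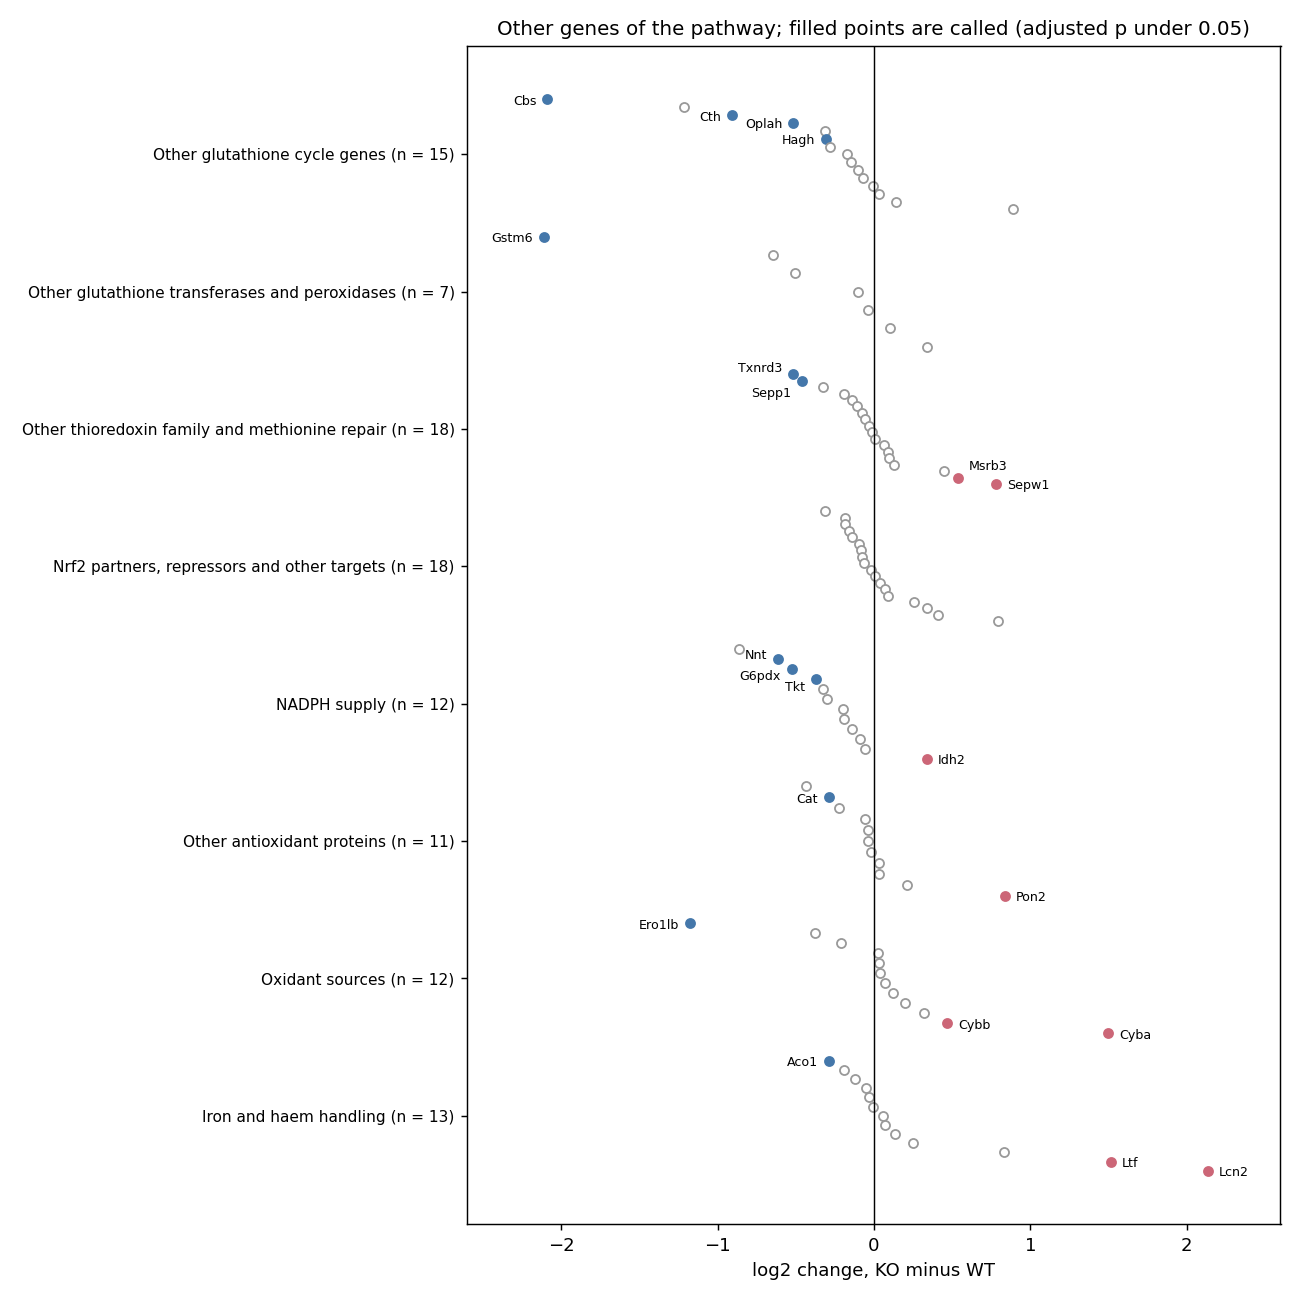
Log2 change of KO against WT for the 106 further pathway genes (horizontal axis) in 8 lists, with the number measured beside each name. Filled and named points are the 21 called genes, red for higher and blue for lower in KO, and the list of Nrf2 partners, repressors and other targets has none.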

How the data were processed

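PolyA RNA of 12 glands was sequenced with 1 library each, and all 12 were used. The authors deposited 1 table of log2 CPM for 11834 genes, together with group means and SDs, their log2 fold change, a score that is the t statistic of their limma fit beside a signed fold, and their p-value with its adjusted p-value. These log2 values are quantile-normalized, as 67.1% of ranks differed by less than 0.01 log2 between libraries and the linear sums lay between 988804 and 988810 CPM. Per the submitters' processing notes, reads went through RSEM 1.3.0, STAR 2.5.2b, Trimmomatic 0.33 and bcl2fastq 2.17, listed in no order, and the table through limma 3.34.5, and the builds mm10 and hg19 are named without their role. The gene filter and strand setting are not given in the sources used here.

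Here limma 3.58.1 (R 4.3.3) compared the 7 KO with the 5 WT libraries in a model with no other term, moderated by eBayes with its trend and robust settings. Its p-value for either direction was corrected across the whole table (Benjamini-Hochberg), and the procedure was tested on simulated data. Tables, promoters and figures were made with Python 3.11.15, pandas 2.3.3 and matplotlib 3.10.9. The genes and lists were chosen with earlier results of these data known. Named in full were the called genes, the 3 uncalled genes with the largest change, the 3 of highest level, and of each further list up to 4 genes of smallest adjusted p. Other genes of the set are given by value. Levels per length use the joined exons of each gene in the GENCODE annotation of mm10, matched by symbol, and 5 selenoprotein genes were matched by RefSeq synonym. Alternatives were a replicate block, lactation day, day 10 libraries, other scalings, filters, plain eBayes, library weights, marker covariates, a stricter threshold, the authors' statistics and leaving out each library. Read counts were not used here, so count models and pseudocounts do not apply.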

Additional observations from a re-analysis of the deposited data

Results flagged for a closer look

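Of 86 groups of 5 or 7 values, 1 for each of the 43 genes in WT and in KO, 3 had a single library far from the rest by Dixon's ratio at the 95% level. Chance alone gives about 1 in 20 groups. WT replicate 3 held 4.23 log2 CPM of Gstp1, and the other 4 WT libraries held 3.94 to 4.00. KO replicate 1 held 3.09 log2 CPM of Gstk1, above 2.53 to 2.73 in the other KO libraries. KO replicate 4 held 3.56 log2 CPM of Gstt3, above 2.90 to 3.17 in the rest. Gstp1 kept its call without WT replicate 3 (adjusted p = 0.0129 in limma).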

How the results depend on the processing

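With all 12 libraries, 4 genes of the set were called higher and 4 lower. No call was reversed in any alternative, and the 8 called genes kept their sign in all. Day 10 libraries alone gave 0 higher and 0 lower (7 and 7 at an unadjusted p under 0.05 in limma, smallest adjusted p = 0.0510), a fit of fewer libraries that called 268 genes of the table. Plain eBayes gave 2 and 2 and the adipocyte covariate 2 and 2 (Gstp1, Nqo1, Gstm1 and Gsto1 in each). They called 897 and 761 genes of the table. The skeletal muscle covariate gave 0 and 1 and the macrophage covariate 0 and 0, with 276 and 7 genes of the table called. The basal covariate, added after seeing the data, gave 0 and 0 (2 and 8 at an unadjusted p under 0.05) and called 20 genes of the table. An adjusted p under 0.01 left 0 and 0, and the cause of these losses was not tested. Leaving out 1 library gave 1 to 5 genes higher and 1 to 4 lower. Those fits called 559 (without WT replicate 1) to 1327 (without KO replicate 6) genes of the table, against 1108 with all 12 libraries. The replicate block gave 3 higher and 3 lower, with 1083 genes of the table called. There Gstm1, Prdx1, Slc7a11 and Fth1 lost the call and Gsr and Osgin1 gained it. Same-numbered libraries did not deviate together (r from -0.17 to 0.213), and 1 of 5 WT libraries correlated best with its own number, so the numbers are names. Cyclic loess gave 3 and 4, filters at a mean of 1 and 3 log2 CPM gave 3 and 4 of 40 genes and 4 and 5 of 32 genes (the latter without Nqo1 and Slc7a11, which were too low to be tested, and with Gsr, Prdx3 and Sod2 gained), library weights 4 and 5 (Prdx4 lost, Gpx8 and Gstm2 gained), and median centring, lactation day and the authors' statistics 4 and 4. Of the uncalled genes, 12 changed sign in some alternative, the largest being Osgin1.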
